A study of Mus musculus with 6 samples.

Results

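Cathepsins are the proteases of the endosome and lysosome, and the 10 genes described here are Ctsa, Ctsb, Ctsc, Ctsd, Ctse, Ctsh, Ctsk, Ctsl, Ctss and Ctsz. They were taken by symbol from a count table of 55487 genes, and all 10 passed the filter on low counts that left 15978 genes for testing. RNA was taken from mouse lung tumours 11 weeks after initiation, from cells gated as positive for GFP and negative for CD45. All tumours were of the KP model, a mouse model of lung adenocarcinoma. The control tumours carried the guide sgNeo and were wild type for Lkb1, and the others carried sgLkb1, which targets Lkb1 (official symbol Stk11), and are labelled Lkb1 mutant. There were 3 libraries per genotype, with total expected counts between 26007503 and 41729299. The sources used here do not give the exact alleles, the means of tumour initiation, or the strain and age of the mice. Where 3 values are listed for a group, they are for replicates 1, 2 and 3 in that order. The labels do not say that the replicates came from separate animals, so p-values cover only the spread among these libraries, and that spread may be technical.

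Most cathepsins are made as inactive precursors that gain activity in acidic compartments, where they digest proteins delivered by endocytosis and autophagy. The family name joins unrelated enzyme classes: Ctsd and Ctse are aspartic proteases, Ctsa is a serine carboxypeptidase, and the other members are cysteine proteases of the papain family. In the lung, Ctsh and the aspartic protease napsin A cut the precursors of surfactant proteins B and C in alveolar type 2 cells, while Ctss and Ctsk are best known from antigen-presenting cells and osteoclasts.

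Levels are in CPM, counts scaled to the TMM-adjusted library size, and the log2 ratio is the log2 fold change of sgLkb1 over sgNeo. A gene was called when its Benjamini-Hochberg (BH) adjusted p in edgeR's quasi-likelihood test was below 0.05. Stk11, the target of the guide, was at 68.3, 33.4 and 82.7 CPM in the sgNeo libraries against 23.5, 25.6 and 25.3 CPM with sgLkb1, so the labels and the target gene went the same way. It was called lower (edgeR adjusted p = 0.023). That call was lost without sgNeo replicate 1 or 3 or any sgLkb1 library (edgeR adjusted p up to 0.0757). The epithelial marker Epcam was at 436.5 to 555.9 CPM in sgNeo and 935.0 to 1344 CPM in sgLkb1, and was called higher (edgeR adjusted p = 0.0111). Nkx2-1, also listed as an epithelial marker, fell from 274.3 ± 18.9 to 128.7 ± 42.1 CPM (edgeR adjusted p = 0.0213). Ptprc, which encodes CD45, lay between 4.36 and 10.4 CPM in all libraries. The summed level of 10 fibroblast markers was 38.0 to 137.0 CPM in sgNeo and 201.1 to 1412 CPM in sgLkb1, and sgLkb1 replicate 3 held the highest value. In bulk samples of this kind, fewer cells of a type and less RNA per cell cannot be told apart.

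The cathepsins did not move in 1 direction between the genotypes. Ctse and Ctsl were higher in sgLkb1 tumour cells, Ctsc, Ctsh and Ctsz were lower, and Ctsa, Ctsb, Ctsd, Ctsk and Ctss did not pass the test. Thus 2 of 10 members rose and 3 fell, where 7.05% of all tested genes rose and 8.60% fell, 15.7% together. The groups did not overlap for 6 of 10 members, against 36.5% of all tested genes. The median log2 ratio, sgLkb1 minus sgNeo, was 0.25 over the members and 0.018 over all tested genes. Leaving out sgNeo replicate 1 or 3 or sgLkb1 replicate 2 brought the number called to 3, and leaving out sgNeo replicate 2 brought it to 2. Ctsc and Ctsl were called in every fit that left out a library.

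**Figure D1:**
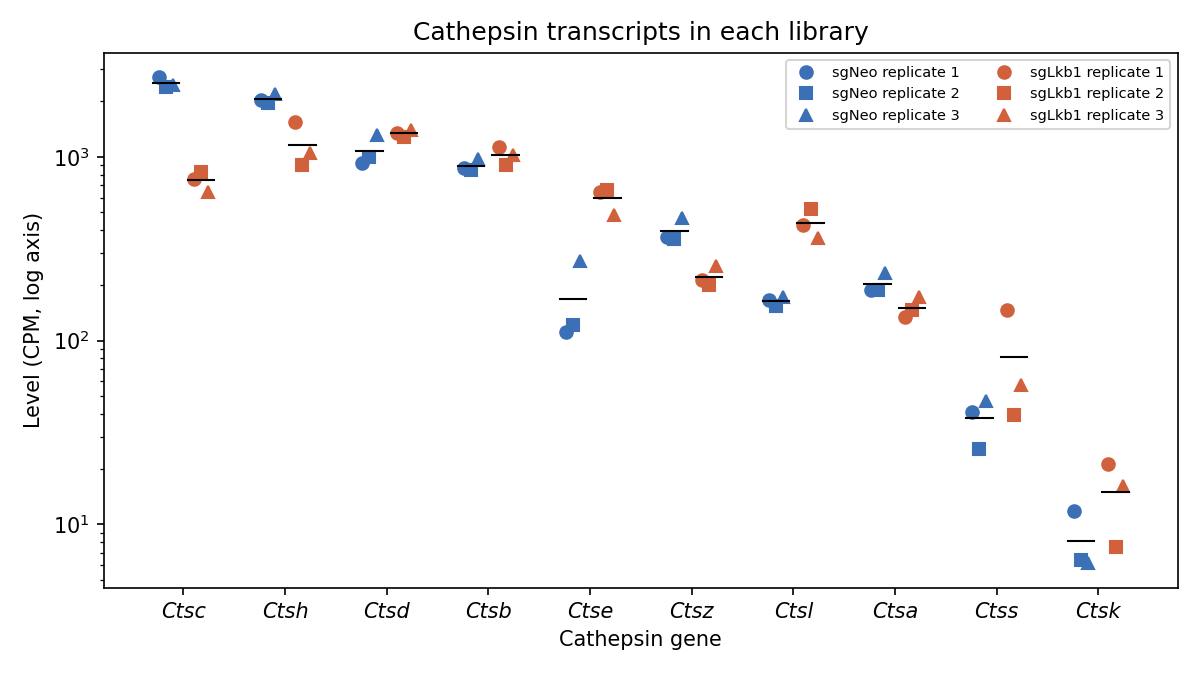
Level of each cathepsin in CPM on a log axis, with 1 point per library (blue sgNeo, orange sgLkb1, symbol by replicate) and a black line at each group mean. Ctsc shows the widest gap downwards, from a mean of 2531 to 744.6 CPM, and Ctse the widest gap upwards, from 168.1 to 594.8 CPM.

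Ctsc, or dipeptidyl peptidase I, removes dipeptides from the ends of proteins and activates the serine proteases of immune cell granules. It was at 2708, 2413 and 2473 CPM in the sgNeo libraries against 758.3, 829.8 and 645.6 CPM with sgLkb1. All sgLkb1 libraries lay far below all sgNeo libraries, and neither group was widely spread. Group means were 2531 ± 155.8 and 744.6 ± 92.9 CPM (SD, n = 3), for a log2 ratio of -1.77 (SE 0.18, edgeR adjusted p = 0.00102), or 3.40-fold lower. Fits without 1 of the 6 libraries gave log2 ratios between -1.82 and -1.68. On GRCm38 the gene spans bases 88278085 to 88310888 of chromosome 7, plus strand, and none of its exons overlaps an exon of another gene. Because Ctsc changed most firmly, the 250 bases before its start site are shown as RefSeq gives them (GRCm38.p6, chr7:88277835-88278084, plus strand).
Ctsc: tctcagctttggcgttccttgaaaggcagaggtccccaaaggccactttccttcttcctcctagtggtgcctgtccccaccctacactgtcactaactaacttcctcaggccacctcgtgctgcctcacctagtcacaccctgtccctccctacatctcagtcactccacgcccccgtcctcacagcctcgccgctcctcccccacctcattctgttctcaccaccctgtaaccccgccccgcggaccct
This window has a GC content of 60.4%, against a median of 52.4% over all such windows, and it is free of the motifs described further on.

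Ctsh, an aminopeptidase that helps to mature surfactant proteins B and C, was the other abundant member that fell. Its level was 2031, 1950 and 2207 CPM in the sgNeo libraries against 1539, 899.2 and 1050 CPM with sgLkb1. The groups did not overlap, and sgLkb1 replicate 1 stood above the other two sgLkb1 libraries. The log2 ratio was -0.83 (SE 0.23, edgeR adjusted p = 0.0474), a 1.77-fold lower level. Leaving out libraries 1 at a time kept the call in 1 of 6 cases (edgeR adjusted p up to 0.134) and was lost with RLE scaling (edgeR adjusted p = 0.0586).

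Ctsz, also called cathepsin X, removes single amino acids from the carboxyl end of proteins. It was at 366.4, 354.9 and 462.3 CPM in the sgNeo libraries against 212.5, 200.1 and 253.7 CPM with sgLkb1, with no overlap. The log2 ratio was -0.83 (SE 0.18, edgeR adjusted p = 0.0180), and leaving out libraries 1 at a time kept the call in 2 of 6 cases, with edgeR adjusted p up to 0.0799. An exon of Ctsz overlaps one of Nelfcd on the opposite strand, which was itself lower (70.0 ± 5.38 to 44.6 ± 5.64 CPM, edgeR adjusted p = 0.0264). The strand setting of the counting is not known, so reads from the overlap cannot be told apart.

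Ctsl, a lysosomal endopeptidase with broad substrates, rose. Its level was 165.7, 154.1 and 172.4 CPM in the sgNeo libraries against 423.8, 519.2 and 362.6 CPM with sgLkb1. Every sgLkb1 library was above every sgNeo library, and the sgNeo libraries were close together. Group means were 164.1 ± 9.25 and 435.2 ± 78.9 CPM (SD, n = 3), for a log2 ratio of 1.41 (SE 0.18, edgeR adjusted p = 0.00228), or 2.65-fold higher. Exons of Ctsl overlap those of an antisense gene, Gm47123, and a pseudogene, Gm49230. Gm47123 was at most 0.612 CPM in any library and Gm49230 had no counts.

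Ctse, an aspartic protease of endosomes that is abundant in stomach epithelium, rose most. It was at 111.0, 121.5 and 271.7 CPM in the sgNeo libraries against 639.4, 663.4 and 481.5 CPM with sgLkb1. The groups did not overlap, but sgNeo replicate 3 was set apart, and the highest of the 3 sgNeo libraries was 2.45 times the lowest. Group means were 168.1 ± 89.9 and 594.8 ± 98.8 CPM (SD, n = 3), for a log2 ratio of 1.82 (SE 0.35, edgeR adjusted p = 0.0120), or 3.54-fold higher. Without sgNeo replicate 2 the call was lost (log2 ratio 1.63, edgeR adjusted p = 0.0596). Without sgNeo replicate 3 the log2 ratio was 2.35.

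Ctsd, the main aspartic protease of the lysosome, did not pass the test. It was at 926.9, 991.1 and 1310 CPM in the sgNeo libraries against 1344, 1284 and 1407 CPM with sgLkb1, and sgNeo replicate 3 lay within the sgLkb1 range. The log2 ratio was 0.32, with a 95% interval from -0.12 to 0.76 (edgeR adjusted p = 0.301). The 2 aspartic members thus differed in their values, 3.54-fold higher for Ctse and 1.25-fold for Ctsd, a difference that was not tested.

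Ctsb, a cysteine protease that acts both within proteins and at their carboxyl ends, was at 871.4, 843.2 and 971.0 CPM in the sgNeo libraries against 1128, 904.6 and 1018 CPM with sgLkb1. The groups overlapped, and the log2 ratio of 0.18 had a 95% interval from -0.21 to 0.58 (edgeR adjusted p = 0.515). Ctsb shares overlapping exons with Fdft1 on the opposite strand, at 92.9 ± 10.5 and 97.1 ± 14.8 CPM.

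Ctsa, which protects the lysosomal sialidase Neu1 and beta-galactosidase Glb1 in a complex, had groups that did not overlap without passing the test. It was at 189.1, 188.9 and 232.6 CPM in the sgNeo libraries against 133.5, 147.0 and 172.4 CPM with sgLkb1 (log2 ratio -0.43, SE 0.17, edgeR adjusted p = 0.125). Its partners Neu1 and Glb1 had log2 ratios of -0.11 and 0.37 and did not pass (edgeR adjusted p = 0.681 and 0.309). The related carboxypeptidase Scpep1 was at 64.6 ± 4.08 and 71.6 ± 2.65 CPM, also short of the threshold. Thus 0 of 3 tested genes of that list were called, where 15.7% of all tested genes were. At an unadjusted edgeR p below 0.05 the list also held 0 genes, and DESeq2 called 0.

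**Figure D2:**
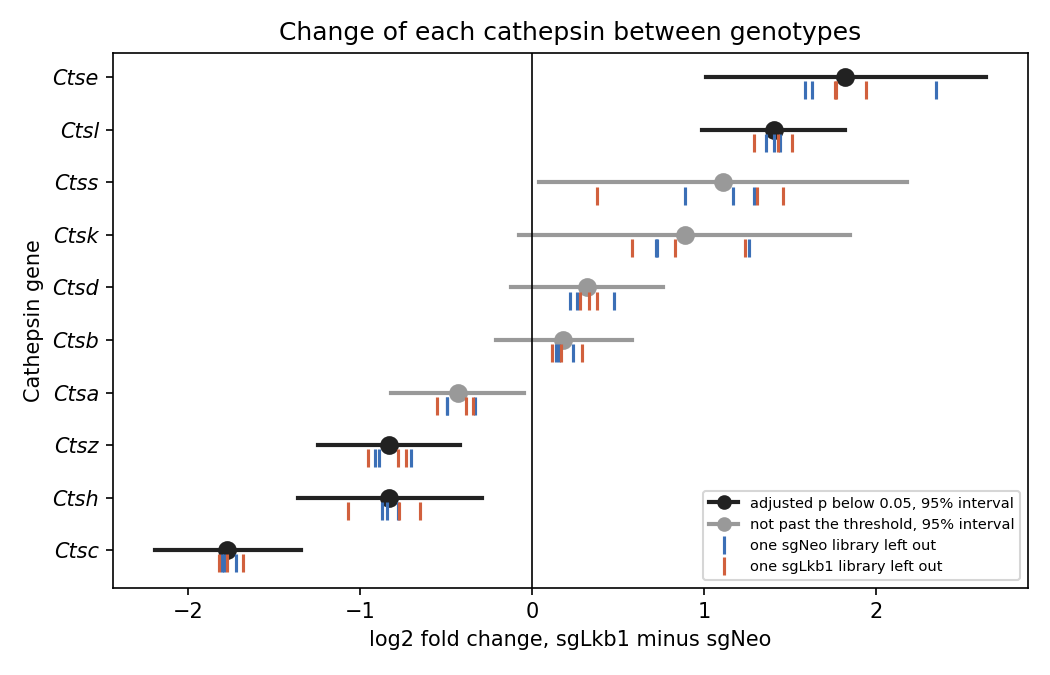
Log2 ratio of sgLkb1 to sgNeo (log2 fold change) of each cathepsin with its 95% interval, black where the adjusted p was below 0.05 and grey where it was not. Ticks under each bar give the value with 1 library left out (blue sgNeo, orange sgLkb1). Ctsc stays between -1.82 and -1.68, and Ctss runs from 0.38 to 1.46.

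Ctss and Ctsk were the least abundant members and varied most between sgLkb1 libraries. Ctss, which cuts the invariant chain in antigen-presenting cells, was at 41.0, 25.7 and 46.6 CPM in the sgNeo libraries against 147.4, 39.5 and 57.5 CPM with sgLkb1. One library, sgLkb1 replicate 1, was high, while sgLkb1 replicate 2 lay within the sgNeo range and sgLkb1 replicate 3 above it. The log2 ratio was 1.11 (SE 0.46, edgeR adjusted p = 0.150). Leaving out sgLkb1 replicate 1 gave 0.38 (edgeR adjusted p = 0.424). Only DESeq2 (adjusted p = 0.0262) and the edgeR fit with no filter on low counts called it among the alternatives. Ctsk, a collagen-degrading protease of osteoclasts and some fibroblasts, was at 11.8, 6.36 and 6.13 CPM in the sgNeo libraries against 21.2, 7.56 and 16.2 CPM with sgLkb1. Its groups overlapped as well, again with sgLkb1 replicate 1 on top (log2 ratio 0.89, SE 0.42, edgeR adjusted p = 0.195). Among the alternatives, only the edgeR fit with no filter on low counts called Ctsk (log2 ratio 0.93, edgeR adjusted p = 0.0414). The genes are neighbours on chromosome 3, with Ctsk from 95499256 to 95509362 and Ctss from 95526786 to 95556403, both on the plus strand (GRCm38).

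Markers of macrophages were read beside these 2 genes and gave a mixed picture. The summed level of 17 macrophage markers was 80.2, 53.2 and 68.7 CPM in sgNeo and 151.1, 81.2 and 114.6 CPM with sgLkb1, also highest in sgLkb1 replicate 1. Of the 16 tested macrophage markers 3 rose, 0 fell and 13 did not pass, where 15.7% of all tested genes were called. Siglecf and Ptprc had log2 ratios of -0.8 and -0.11 and did not pass (edgeR adjusted p = 0.303 and 0.886). The mannose receptor Mrc1 rose, with 6.98, 5.10 and 5.58 CPM in sgNeo and 26.4, 20.2 and 13.5 CPM in sgLkb1, and the complement genes C1qb and C1qc rose from 1.11 ± 0.09 to 6.75 ± 4.11 CPM and from 0.628 ± 0.125 to 3.06 ± 0.34 CPM (edgeR adjusted p = 0.00611, 0.0122 and 0.0098). Csf1r was at 4.88 ± 1.23 and 5.04 ± 2.03 CPM and Cd68 at 17.7 ± 2.20 and 30.4 ± 10.5 CPM, both short of the threshold (edgeR adjusted p = 0.949 and 0.0925). Cd163 was at 0 counts in 4 of 6 libraries. Ctsk levels divided by the macrophage sum were 0.148, 0.119 and 0.0893 in sgNeo and 0.140, 0.0931 and 0.141 in sgLkb1. The same ratio for Ctss was 0.511, 0.482 and 0.679 in sgNeo and 0.975, 0.487 and 0.502 in sgLkb1, so that sgLkb1 replicate 1 remained the highest. The 6 osteoclast markers went different ways. Acp5 was at 50.2 to 80.7 CPM with sgLkb1 and rose, Tnfrsf11a was at 9.24 to 14.4 CPM there and fell, and Atp6v0d2 reached 45.8 CPM in sgLkb1 replicate 1 without passing. Dcstamp, Ocstamp and Calcr were at most 0.587 CPM in any library. The fibroblast sum also differed, at 38.0 to 137.0 CPM in sgNeo and 201.1 to 1412 CPM in sgLkb1. No such ratio was formed for it. The part of macrophages, fibroblasts or other cell types in the Ctss and Ctsk values was not tested.

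**Figure D3:**
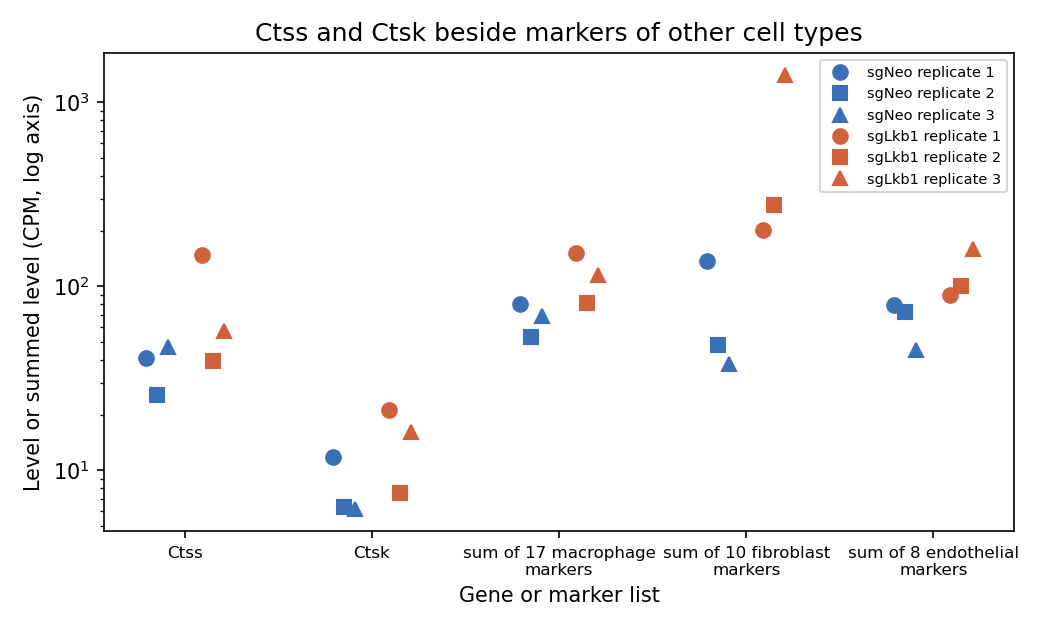
Levels of Ctss and Ctsk and summed levels of macrophage, fibroblast and endothelial markers in each library, in CPM on a log axis (blue sgNeo, orange sgLkb1, symbol by replicate). Ctss, Ctsk and the macrophage sum were highest in sgLkb1 replicate 1, while the fibroblast and endothelial sums were highest in sgLkb1 replicate 3.

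Differences in both directions changed the make-up of the cathepsin transcripts. The 10 members summed to 7422, 7049 and 8153 CPM in sgNeo and to 6347, 5494 and 5464 CPM with sgLkb1, so every sgLkb1 library was below every sgNeo library. Within a library, where scaling cancels, Ctsc exceeded Ctsl in CPM by 16.3, 15.7 and 14.3 times in sgNeo and by 1.79, 1.60 and 1.78 times in sgLkb1. The ratio of Ctsc to Ctsb was 3.11, 2.86 and 2.55 in sgNeo, and 0.672, 0.917 and 0.634 in sgLkb1. These ratios were chosen after the values were seen and carry no test.

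To compare levels between genes, CPM was divided by the length in kilobases of the shortest principal transcript. On this per-length scale the order in sgNeo was Ctsh (1276 ± 81.3 CPM per kb, SD, n = 3), Ctsc (1015 ± 62.5), Ctsd (505.9 ± 96.5), Ctsz (273.8 ± 40.9) and Ctsb (188.7 ± 14.2). Ctsl (83.3 ± 4.69), Ctse (79.0 ± 42.3), Ctsa (55.8 ± 6.90), Ctss (27.9 ± 8.0) and Ctsk (5.36 ± 2.13) followed. The ranges of Ctse and both of its neighbours overlapped, while those of the other neighbours did not. In sgLkb1 the order was Ctsh (719.0 ± 206.9 CPM per kb), Ctsd (632.1 ± 28.9), Ctsc (298.7 ± 37.2), Ctse (279.8 ± 46.5), Ctsl (220.8 ± 40.0), Ctsb (214.4 ± 23.6), Ctsz (154.1 ± 19.5), Ctss (60.1 ± 42.6), Ctsa (41.4 ± 5.41) and Ctsk (9.92 ± 4.58). Here the ranges overlapped between Ctsh and Ctsd, between each pair of neighbours from Ctsc to Ctsb, and between Ctss and Ctsa.

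As a share of the summed per-length level, Ctsc went from 29 ± 2.82% in sgNeo to 11.4 ± 1.77% in sgLkb1, and Ctsh from 36.4 ± 0.54% to 27 ± 4.94% (SD, n = 3). The share of Ctsd was 14.3 ± 1.74% and 24.2 ± 2.68%, that of Ctse 2.20 ± 1.00% and 10.7 ± 1.77%, and that of Ctsl 2.37 ± 0.08% and 8.46 ± 1.90%. Order and shares rest in part on the transcript length. With the union of all exons as the length, Ctsd led in sgLkb1 (571.9 ± 26.1 CPM per kb) before Ctsh (258.4 ± 74.4), and Ctsh, Ctsd and Ctsc were close in sgNeo (458.5 ± 29.2, 457.7 ± 87.3 and 435.8 ± 26.8). The shares in sgNeo and sgLkb1 were then 22.8 ± 2.77% and 7.87 ± 1.27% for Ctsc, 23.8 ± 0.93% and 15.6 ± 3.10% for Ctsh, and 23.6 ± 2.27% and 35.1 ± 3.01% for Ctsd. They were 2.67 ± 1.14% and 11.5 ± 2.05% for Ctse, and 1.32 ± 0.08% and 4.13 ± 0.95% for Ctsl. Under both lengths the mean shares of Ctsc and Ctsh were lower in sgLkb1 and those of Ctsd, Ctse and Ctsl higher. Those of Ctsb, Ctsk and Ctss were higher as well. Shares of a sum depend on each other, so a share can rise for a gene that was not called, such as Ctsd (edgeR adjusted p = 0.301).

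**Figure D4:**
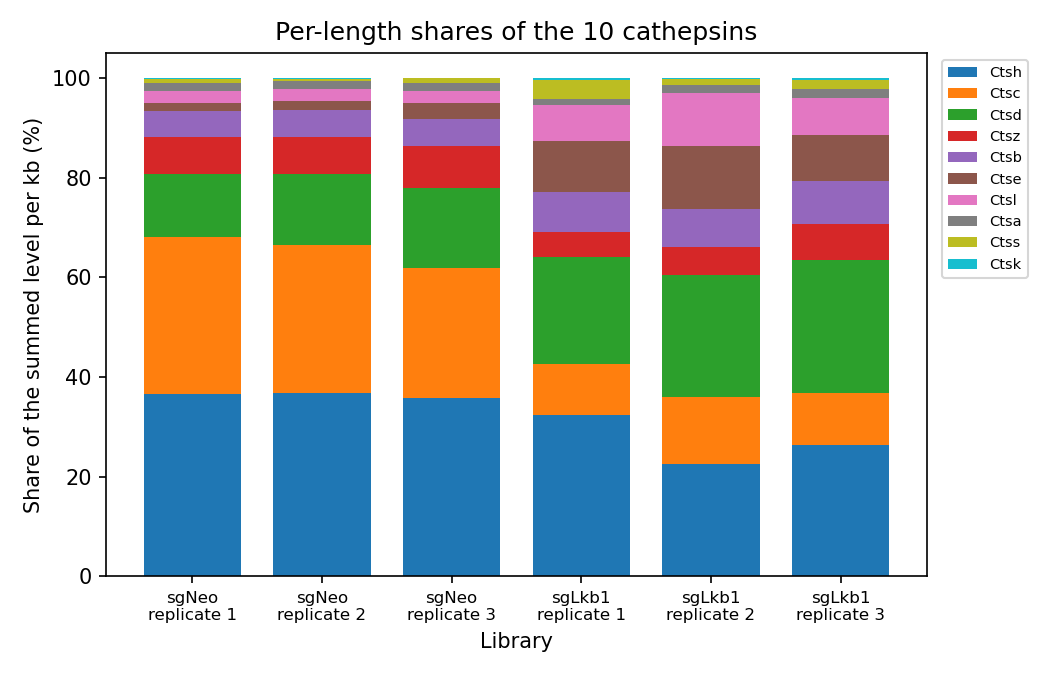
Share in percent of each cathepsin in the summed per-length level of the 10 genes, 1 stacked bar per library. Ctsc takes 26 to 31.6% in sgNeo and 10.3 to 13.5% in sgLkb1, and Ctse and Ctsl widen in all sgLkb1 libraries.

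Promoter windows, the 250 bases before a RefSeq start site on GRCm38.p6, were matched for 7 of 10 members, with 8 windows in all, and the others are Ctsb, Ctse and Ctsh. The palindrome CACGTG is the core of the element through which the MiT factors, regulators of lysosomal genes, bind DNA, and TCACGTGA is its longer form and contains it. CACGTG was found in the windows of 3 members, Ctsa, Ctsd and Ctsl, and in 6.02% of all 32817 windows. TCACGTGA was found in windows of 2 members, Ctsa and Ctsd, and in 0.786% of all windows. Of these 3 genes Ctsl rose and the others did not pass. The windows that hold these sites overlap GENCODE exons, and those of Ctsa and Ctsl lie within the gene, whose outermost start in GENCODE is base 164832873 of chromosome 2 for Ctsa and base 64370890 of chromosome 13 for Ctsl. For Ctsd that start is base 142388038 of chromosome 7. Its site 98 bases before the RefSeq start lies within the gene, and its site at 245 bases lies outside it. The other Ctsa window, which ends before its outermost start, held none of the motifs searched. The sites are shown with 30 bases each, 5′ to 3′ on the strand of the gene, with CACGTG in capitals.
Ctsa, 12 bases before a RefSeq start site (chr2:164833743-164833772, plus strand): gaacaatgagcaaactgtCACGTGatgcag
Ctsd, 245 bases before a RefSeq start site (chr7:142388048-142388077, minus strand): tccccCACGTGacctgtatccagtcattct
Ctsd, 98 bases before the same start site (chr7:142387908-142387937, minus strand): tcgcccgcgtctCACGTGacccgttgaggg
Ctsl, 236 bases before a RefSeq start site (chr13:64370739-64370768, minus strand): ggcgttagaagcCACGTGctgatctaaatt
The cyclic AMP response element TGACGTCA (1.55% of all windows), the STAT motif TTCCNGGAA (0.914%) and the AP-1 motif TGANTCA (6.75%) were searched on both strands and were not among these letters in any of the 8 windows. A match is a string of letters and not a measured site.

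Of 13 further genes of the cathepsin family, 3 were tested and 8 had no counts in any library. Ctsf, a cysteine protease, fell from 7.48 ± 0.22 to 2.48 ± 1.46 CPM (log2 ratio -1.59, SE 0.44, edgeR adjusted p = 0.0447). Its call was lost with RLE scaling (edgeR adjusted p = 0.0511) and in 5 of 6 cases where 1 library was omitted. Ctso was at 85.5 ± 12.6 and 71.0 ± 34.5 CPM while Ctsw, known from cytotoxic lymphocytes, had 0.973 ± 0.78 and 1.43 ± 0.54 CPM, and neither passed.

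In a list of cathepsin inhibitors and members of their families, 2 of 7 tested genes rose and 1 fell, with 25 of 26 listed genes in the table. Over all tested genes 15.7% were called. Ctla2a and Ctla2b encode small proteins like the propeptide of cathepsin L, and both rose beside Ctsl. Ctla2a was at 8.42, 6.40 and 3.27 CPM in the sgNeo libraries against 56.9, 86.0 and 70.1 CPM with sgLkb1 (log2 ratio 3.56, SE 0.35, edgeR adjusted p = 0.000851). Ctla2b went from 0.401 ± 0.21 to 9.08 ± 5.22 CPM (log2 ratio 4.49, SE 0.59). They are close copies with exons that overlap those of shared gene models, so the division of reads between them is uncertain. Cst8, a cystatin family gene not shown here to inhibit cathepsins, fell from 6.88 ± 4.33 to 0.872 ± 0.59 CPM (edgeR adjusted p = 0.0215). Its call was lost without sgNeo replicate 1 or sgLkb1 replicate 3 (edgeR adjusted p = 0.0793 and 0.0571). The abundant inhibitors cystatin C, encoded by Cst3, and cystatin B, encoded by Cstb, were at 262.3 ± 31.6 and 178.0 ± 23.5 CPM and at 172.1 ± 13 and 215.2 ± 7.77 CPM, both short of the threshold (edgeR adjusted p = 0.0629 and 0.169).

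Genes that sort cathepsins to the lysosome or activate them had 1 of 14 members higher and 4 lower, where 7.05% of all tested genes rose and 8.60% fell. Gga2, an adaptor of the mannose 6-phosphate receptors at the Golgi, fell from 36.4 ± 2.69 to 12.5 ± 1.29 CPM (log2 ratio -1.55, SE 0.17, edgeR adjusted p = 0.00111), and the sorting receptor Sort1 from 99.8 ± 4.63 to 39.8 ± 11.1 CPM. Gnptab and Gnptg encode subunits of the enzyme that starts the mannose 6-phosphate tag, and they fell from 81.6 ± 5.08 to 43.7 ± 12.4 CPM and from 62.5 ± 3.38 to 40.3 ± 2.91 CPM. The receptors themselves, M6pr and Igf2r, were at 230.6 ± 17 and 244.4 ± 28.1 CPM and at 35.8 ± 8.55 and 30.9 ± 2.41 CPM, and neither passed. Psap, the saposin precursor, rose from 222.0 ± 34.5 to 386.8 ± 53.8 CPM (edgeR adjusted p = 0.0232). Lgmn, the protease that cuts several cathepsins to their mature chains, did not pass (edgeR adjusted p = 0.404). The total called in this list was 2 when sgNeo replicate 1 or 2 or sgLkb1 replicate 2 was left out, and 3 when replicate 3 of either group was.

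The surfactant list, genes of surfactant and its storage organelle, fell as a group, 7 of 7 with a median log2 ratio of -2.34, against -0.83 for Ctsh. Over all tested genes 8.60% fell, 7.05% rose and the median was 0.018. Napsa, which encodes napsin A, fell from 1541 ± 234.5 to 366.5 ± 117.2 CPM (log2 ratio -2.07, SE 0.28, edgeR adjusted p = 0.00283). In the list of other aspartic proteases, which leaves out Ctsd and Ctse, 5 genes were tested, and 1 rose and 1, Napsa, fell. The gene that rose was Bace1, from 19.6 ± 0.68 to 43.1 ± 17.4 CPM. Its call was lost when any sgNeo library or sgLkb1 replicate 2 was omitted (with edgeR adjusted p up to 0.0947). The MHC class II list, whose invariant chain Cd74 is the best-known substrate of Ctss, had 10 of 11 members lower with a median of -2.77, while Ctss itself had a log2 ratio of 1.11 without passing. H2-Ob was the exception (edgeR adjusted p = 0.180). The summed level of 11 lymphocyte markers was also lower, 16.4 to 25.8 CPM in sgNeo and 5.77 to 9.49 CPM in sgLkb1, and its part in the MHC class II values was not tested.

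Other lysosomal hydrolases and membrane proteins had 1 of 32 members higher, 6 lower and a median log2 ratio of -0.22. Over all tested genes 7.05% rose, 8.60% fell and the median was 0.018. The iduronidase Idua fell from 27.1 ± 2.11 to 10.6 ± 1.31 CPM (log2 ratio -1.36, SE 0.18, edgeR adjusted p = 0.00256), the glucosidase Gaa from 205.3 ± 14.5 to 109.4 ± 16.8 CPM and the sphingomyelinase Smpd1 from 100.3 ± 14.6 to 51.0 ± 9.27 CPM. The membrane proteins Lamp1 and Lamp2 were at 1084 ± 14.4 and 850.7 ± 36.6 CPM and at 627.3 ± 98.2 and 758.1 ± 244.4 CPM, and neither passed. The total called was 4 when any sgNeo library was left out and 3 without sgLkb1 replicate 2.

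**Figure D5:**
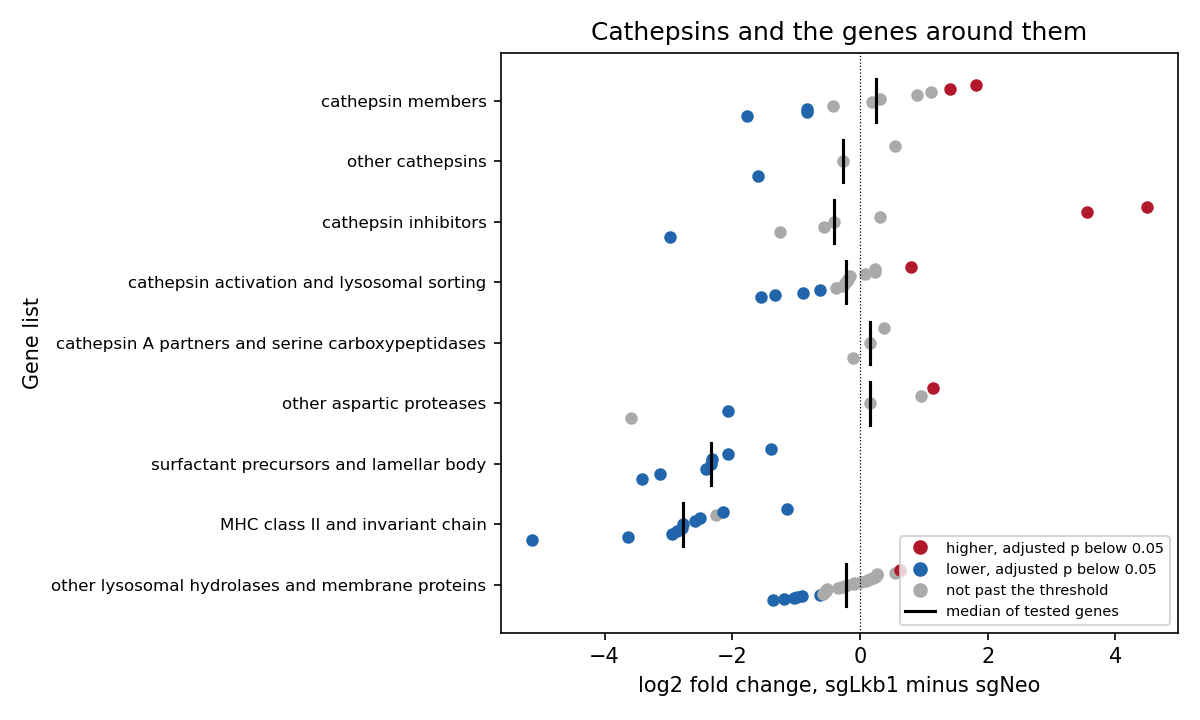
Log2 ratio of sgLkb1 to sgNeo (log2 fold change) of every tested gene in the cathepsin group and in the lists around it, 1 point per gene, red where called higher, blue where called lower and grey otherwise, with a black line at each median. The cathepsins lie on both sides of 0, and the surfactant and MHC class II genes lie to the left with medians of -2.34 and -2.77.

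The genes whose pattern was nearest to that of Ctsc and Ctsl, the members with the lowest p, were looked for among 10430 genes with a mean of at least 5 CPM. The measure was the root mean square difference of log2 CPM after each gene was centred on its mean over the 6 libraries. Nearest to Ctsc were Fry (0.123), Wnk4 (0.131) and Cutal (0.132), with log2 ratios of -1.70, -1.65 and -1.69. Nearest to Ctsl were Tiam2 (0.107), Pmepa1 (0.111) and Zdhhc17 (0.126), with log2 ratios of 1.33, 1.38 and 1.26. For Ctse, added after its values were seen, Gnb5 (0.189), Tspan3 (0.192) and Iqgap2 (0.197) came nearest. Gnb5 was at 4.17, 4.86 and 9.80 CPM in sgNeo, so sgNeo replicate 3 was its highest control as it was for Ctse.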

How the data were processed

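RNA from 6 sorted samples was sequenced from Nextera XT libraries, per the labels' protocols. The authors deposited expected counts per gene. For this step STAR and RSEM, besides FastQC and DESeq2, are listed with build GRCm38 in the submitters' processing notes. The strand setting, like tool versions and annotation release, is not given in the sources used here.

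Expected counts were rounded. Genes were kept with filterByExpr, and the groups were compared with TMM scaling and edgeR 4.0.16 (glmQLFit and glmQLFTest, two-sided, R 4.3.3) with no term but genotype, and p-values were BH-adjusted over 15978 genes. The SE of a log2 ratio is its size divided by the square root of F, and 95% intervals use the test's degrees of freedom. A count of 3 is 0.119 to 0.121 CPM in sgNeo and 0.0734 to 0.0861 CPM in sgLkb1 libraries, and this covers counting error only. Gene models and lengths are from GENCODE M21 (GRCm38), which holds 55141 of the table's 55487 gene IDs. On simulated data on all 15978 genes, with 50 changed at each size, recovery was 0% at 1.5-fold, 22% at 2-fold, 90% at 4-fold and 96% at 8-fold. Replicates of a group differed by far more than sampling noise (chi-square per degree of freedom 38.7 to 193).

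The members, the 15 lists and the rule for named genes were chosen with earlier results of these data known. All members are named, with the first 2 and the 4 lowest-p genes of each list, of which the text prints part, and Nelfcd and other overlapping genes were added. Alternatives were RLE scaling, removal of the 10 most abundant genes, no filter, a filter of 1 CPM in 3 libraries, DESeq2 1.42.0, a replicate block and each library left out. The length by exon union was added after seeing the data.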

Additional observations from a re-analysis of the deposited data

How the results depend on the processing

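Directions of all 10 cathepsins held in the 12 alternatives, and Ctsc and Ctsl kept their calls in all of them. The number of cathepsins called was 2 to 5 with a library left out, 4 with RLE scaling, 6 with DESeq2 and 7 with no filter. Over all genes 2501 were called, 1129 to 2780 with a library left out. With a library left out the count was 0 to 1 for further cathepsins, 2 to 5 for sorting and activation genes, 1 to 2 for other aspartic proteases and 3 to 8 for other lysosomal genes. With RLE scaling 0 further cathepsins were called in edgeR, with 1 at an unadjusted p below 0.05 and 1 by DESeq2. The same-numbered libraries had correlations of deviations of 0.135, -0.0214 and 0.115. Those of replicates 1 and 3 were the highest of all pairs, but not every library correlated best with its own number. With 3 libraries per group this does not settle whether the libraries pair. With a replicate block 5 cathepsins and 2880 genes were called. Of 68 named genes, some with no call turned sign: M6pr (-0.00448) and Lamp2 (-0.00627) without sgLkb1 replicate 1, Egfl7 (-0.072) and Csf1r (-0.26) without sgLkb1 replicate 3, and Csf1r also without sgNeo replicate 1 (-0.14) and with the replicate block (-0.0042). With a library left out the highest values were 0.14, 0.44, 0.6 and 0.36 for M6pr, Lamp2, Egfl7 and Csf1r. The cause was not tested. In simulation 0% of 1.5-fold and 22% of 2-fold changes were recovered, which limits what these libraries can show for small changes.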

Other observations

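Of the 6 genes listed as osteoclast markers, 3 were tested, 1 rose and 1 fell, where 15.7% of all tested genes were called. Acp5, a lysosomal acid phosphatase, rose from 16.5 ± 5.87 to 66.7 ± 15.4 CPM (log2 ratio 2.02, SE 0.29, edgeR adjusted p = 0.00347), and the groups did not overlap. Tnfrsf11a, the receptor for RANK ligand, fell from 35.0 ± 6.38 to 11.0 ± 2.95 CPM (log2 ratio -1.67, SE 0.24). Atp6v0d2, a subunit of the proton pump that acidifies the lysosome, was at 15.2, 6.80 and 9.60 CPM in the sgNeo libraries against 45.8, 9.50 and 18.7 CPM with sgLkb1, and did not pass (edgeR adjusted p = 0.172). Like Ctss and Ctsk it was highest in sgLkb1 replicate 1.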
